A study of Mus musculus with 10 samples.

Results

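Imprinted genes are transcribed mainly or only from the allele inherited from 1 parent. Of 21627 protein-coding genes on chromosomes 1 to 19 and X, 47 imprinted genes were taken from a fixed list of names, and all 47 were found in the RefSeq annotation of GRCm38.p6, the assembly called mm10. Each was read over its gene body plus 5 kb either side, called its window here, in 8 lists of called peaks from neonatal mouse retina. The question was which of these genes carry H3K27ac, found at active promoters and enhancers, and H3K27me3, laid down by Polycomb complexes at repressed genes, at the same place, as alleles in different states could give.

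Parental copies of an imprinted gene differ in DNA methylation set in the germ line. Proteins that include ZFP57 keep this methylation in the embryo, and it governs which copy is transcribed. The silent copy can carry DNA methylation, H3K27me3 or both, and several members are imprinted in only some tissues, such as placenta or brain. In retina, Plagl1 is known to limit cell number, and Dio3, which inactivates thyroid hormone, protects cones.

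All samples came from C57BL/6 mice. ChIP-seq for each histone mark was done on 1 control library, labelled wild type, and 1 Casz1 conditional knockout (cKO) library from microdissected retina at postnatal day 0, and cKO tissue was dissected from the periphery of the retina by its fluorescence. ATAC-seq, which marks open chromatin by Tn5 insertion, was done on 2 control and 2 cKO libraries. These were explants of postnatal day 2 retina that received a plasmid for GFP (control, also labelled wild type) or for GFP with Cre (cKO) and were cultured for 2 days, and 50000 cells with GFP and without the dead-cell dye propidium iodide were then sorted for each. The 2 ATAC replicates came from experiments on different days. The peak names call the ChIP libraries Cre-negative and Cre-positive, and the sources used here give neither the Cre driver nor the deleted part of Casz1, so the lists do not check the genotype labels. An inbred strain gives no sequence differences between parents, so no peak could be assigned to an allele.

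The peak lists give positions and no heights, so depth is unknown. The 4 ATAC lists ranged from 40435 to 110741 peaks and from 11.8 to 61.0 Mb, and the pair of long lists was control replicate 2 and cKO replicate 1. For H3K27ac 55.4 Mb were covered in control against 51.6 Mb in cKO. For H3K27me3 the totals were 87.4 and 84.5 Mb. All 9 retinal marker genes checked, among them Pax6, Otx2, Crx and Neurod1, had an H3K27ac peak within 1 kb of a start in both libraries. The markers of liver, muscle and pigment epithelium had none there (0 of 2 each), and those of red blood cells, lens and vessels had 1 of 2 each.

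Both marks met within 1 kb of a start in both genotypes at 7 members, and the promoters of the 5 with at least 200 bp of overlap there are shown first. Each is 250 bases before to 50 bases after a RefSeq start (mm10), 5′ to 3′ along the gene, with CpG dinucleotides, the sites of DNA methylation, in capitals. They are Grb10 (chr11:12037371-12037670, minus strand), Zdbf2 (chr1:63273019-63273318, plus), Dio3 (chr12:110278980-110279279, plus), Gnas (chr2:174327499-174327798, plus) and Sfmbt2 (chr2:10372186-10372485, plus).
Grb10: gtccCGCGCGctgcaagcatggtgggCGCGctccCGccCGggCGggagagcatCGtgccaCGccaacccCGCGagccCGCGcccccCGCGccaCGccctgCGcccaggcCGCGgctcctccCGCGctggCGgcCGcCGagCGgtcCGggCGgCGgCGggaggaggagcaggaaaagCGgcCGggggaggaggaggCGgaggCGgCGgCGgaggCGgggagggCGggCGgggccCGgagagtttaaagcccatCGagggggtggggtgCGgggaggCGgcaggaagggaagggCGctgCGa
Zdbf2: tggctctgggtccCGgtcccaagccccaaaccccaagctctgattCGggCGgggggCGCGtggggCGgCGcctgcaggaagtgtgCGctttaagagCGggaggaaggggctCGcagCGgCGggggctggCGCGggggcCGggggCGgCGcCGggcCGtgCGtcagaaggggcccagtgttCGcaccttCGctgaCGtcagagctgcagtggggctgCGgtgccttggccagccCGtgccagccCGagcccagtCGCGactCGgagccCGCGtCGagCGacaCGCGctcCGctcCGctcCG
Dio3: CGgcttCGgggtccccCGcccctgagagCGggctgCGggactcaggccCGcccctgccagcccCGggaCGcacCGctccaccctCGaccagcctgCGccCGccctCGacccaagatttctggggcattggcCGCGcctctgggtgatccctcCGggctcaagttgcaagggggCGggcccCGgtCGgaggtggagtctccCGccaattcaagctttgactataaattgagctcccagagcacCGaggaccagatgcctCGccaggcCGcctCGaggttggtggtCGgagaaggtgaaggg
Gnas: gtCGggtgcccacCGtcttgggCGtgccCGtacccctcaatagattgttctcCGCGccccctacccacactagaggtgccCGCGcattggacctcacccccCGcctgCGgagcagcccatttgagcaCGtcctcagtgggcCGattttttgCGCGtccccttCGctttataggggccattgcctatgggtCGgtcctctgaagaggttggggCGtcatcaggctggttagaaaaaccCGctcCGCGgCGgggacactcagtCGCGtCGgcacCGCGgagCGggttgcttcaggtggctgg
Sfmbt2: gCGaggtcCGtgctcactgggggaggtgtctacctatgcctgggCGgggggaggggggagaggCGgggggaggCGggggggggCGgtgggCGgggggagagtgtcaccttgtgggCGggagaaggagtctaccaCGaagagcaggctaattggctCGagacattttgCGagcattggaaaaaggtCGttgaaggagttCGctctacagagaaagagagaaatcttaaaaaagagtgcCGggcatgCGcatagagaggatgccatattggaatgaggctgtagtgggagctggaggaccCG

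Within the printed bases both marks covered all 300 at Grb10 and Zdbf2 in both genotypes, and 63 in control and 16 in cKO at Dio3. At Gnas they shared 0 and 119 of the printed bases, and at Sfmbt2 0 in both genotypes, since the marks met beside the printed stretch. These promoters hold 45 (Grb10), 38 (Zdbf2), 25 (Dio3), 27 (Gnas) and 16 (Sfmbt2) CpG. The median over the 60 starts of the 39 members in the promoter table was 16, and that over all 32619 starts was 7. The hexamer TGCCGC, the motif that ZFP57 reads when it is methylated, was searched on both strands. It was in 14 of the 60 member promoters, beside 11.7% of all promoters, and among the 5 shown it was in that of Grb10 alone. Over all genes the share was 20.8% for starts with both marks at the same place in control and 18.8% for starts with H3K27ac alone. Among member starts the hexamer was in 2 of 12 with both marks at the same place in control and 8 of 24 with H3K27ac alone. Promoters of close starts of the same gene, as at Mest, overlap and were counted separately. The promoter table held no entry for Sgce, Rtl1, Peg10, Kcnq1, Impact, Trappc9, Kcnk9 and Klf14.

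Both marks met at the same place in the windows of 15 members in control and 12 in cKO. Among all genes 20.5% did so in control and 20.1% in cKO. In both genotypes it was 10 members, beside 18% of all genes: Grb10, Zdbf2, Dio3, Gnas, Kcnq1, Sfmbt2, Ddc, Dlk1, Commd1 and Zrsr1. The last pair shares a single place, since Zrsr1 lies inside Commd1. With at least 200 bp under both marks in each genotype the count was 6 (Grb10, Zdbf2, Dio3, Gnas, Kcnq1 and Sfmbt2), and the background was 15%. For both genotypes together the members' share was thus 21.3%, or 12.8% at 200 bp, near that of all genes.

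Of the 47 members 17 overlap another member's window, in 9 pairs, so members are not independent of each other. Member windows are longer than those of other genes, with a median of 49.2 kb beside 27.3 kb. Among genes with a window above the median of all genes, 7 of 28 members met the rule in both genotypes, beside 24% of all genes. Counting control by itself it was 9 of 28 (26.9%) and in cKO 9 of 28 (26.5%). Among shorter windows 6 of 19 members met it in control, or 31.6%, beside 14.1% of all genes. These were Nap1l5, Mkrn3, Igf2, Zrsr1, Dlk1 and Dio3. In cKO and in both genotypes it was 3 of 19 (Zrsr1, Dlk1 and Dio3), beside 13.6% and 12.1%. Within 1 kb of any annotated start, of which the 39 members in the promoter table had 1 to 4, 10 members met it in control (14.5% of all genes), 8 in cKO (14.1%) and 7 in both (12.7%). With at least 200 bp there the count in both genotypes was 5 (10.4%).

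Each mark was in a larger share of member windows than of all windows. H3K27ac was in 38 of 47 in each genotype, beside 71.7% of all genes in control and 71.8% in cKO, and H3K27me3 in 33 of 47 in each, beside 49% and 48.5%. Within 1 kb of starts H3K27ac was found at 34 members in each genotype (62.2% and 62.1%) and H3K27me3 at 22 (27.2% and 26.9%). Both marks, shared or apart, were in 25 windows in each genotype (40.1% and 39.5%). Of these 25 the marks shared bases in 15 in control and 12 in cKO, beside 51.1% and 50.7% of all genes with both.

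Measured in bases, H3K27me3 covered 9.13% of the members' windows in control and 8.97% in cKO, beside 4.53% and 4.40% of the windows of all genes. H3K27ac covered 159758 of 3993683 bp in control and 158976 bp in cKO, or 3.98% in cKO, beside 3.68% and 3.45% over all genes. Of the bases under H3K27ac in member windows, 8.03% in control and 8.53% in cKO were also under H3K27me3, close to the 7.64% and 7.49% over all genes. Of the bases under H3K27me3, 3.52% and 3.79% were also acetylated, lower than the 6.21% and 5.88% over all genes.

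The double-marked stretches of the leading members were shorter than those of Otx2 and Neurod1, retinal transcription factor genes not known to be imprinted. Otx2 had 10723 bp under both marks in control against 10906 bp in cKO, and Neurod1 had 9529 and 8741 bp, against 5452 and 5879 bp for Grb10. Of the 9 retinal marker genes, 7 had both marks at the same place in both genotypes. In dissected tissue, alleles in different states, cells in different states and both marks on the same chromatin cannot be told apart.

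**Figure D1:**
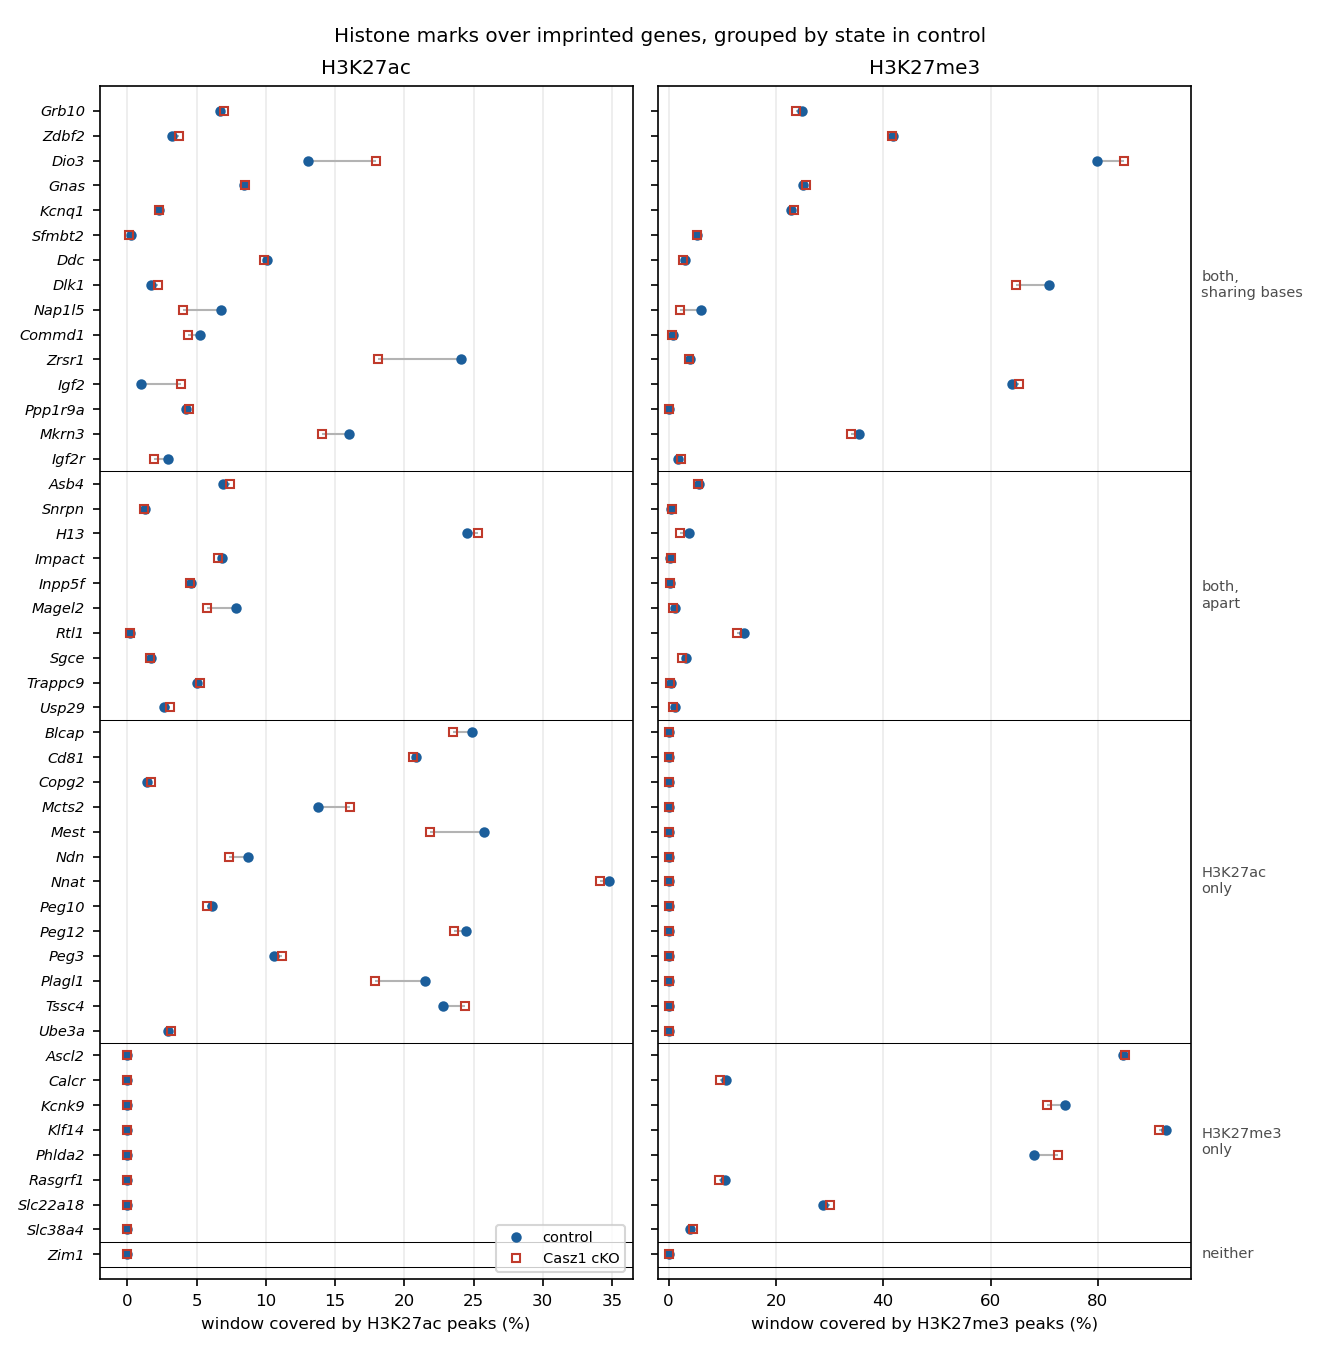
Percent of each imprinted gene's window covered by H3K27ac peaks (left panel) and H3K27me3 peaks (right panel), with 1 control library (filled circle) and 1 cKO library (open square) per mark, grouped by state in control. The 13 genes with H3K27ac alone and the 8 with H3K27me3 alone kept that state in cKO, and Zim1 had neither mark.

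In control 15 had both marks sharing bases, 10 had both marks apart, 13 had H3K27ac alone, 8 had H3K27me3 alone and 1, the zinc finger gene Zim1, had neither. The same 13, 8 and 1 were found in cKO, so all 7 changes of state were between both marks sharing bases and both marks apart. Over all genes in control, 31.7% had H3K27ac alone, 8.90% had H3K27me3 alone and 19.4% had neither.

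Grb10, an adaptor of insulin and growth factor receptors that restrains growth, had the longest double-marked stretch of the list (chromosome 11, 11930499 to 12037428). It is expressed from the maternal allele in most tissues and from the paternal allele in neurons. H3K27ac covered 7813 bp of its window in control and 8180 bp in cKO, and H3K27me3 covered 29102 and 27845 bp. Of the acetylated bases, 69.8% and 71.9% lay under H3K27me3. In control a single acetylated peak of 4506 bp over the CpG-rich start lay wholly inside an H3K27me3 peak of 21493 bp. In cKO the same stretch was called as 2 peaks of 3208 and 1262 bp inside an H3K27me3 peak of 31421 bp. The start was open in all 4 ATAC lists, with 177, 1078, 1068 and 430 bp of ATAC peak within 1 kb in control replicates 1 and 2 and cKO replicates 1 and 2. The neighbour Ddc, which encodes aromatic amino acid decarboxylase, had 1 small double-marked place far inside the gene, 62379 bp from its nearest start in control and 62489 bp in cKO. It spanned 307 and 138 bp.

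Zdbf2, a paternally expressed zinc finger gene, showed the same arrangement at an internal start (chromosome 1, gene 63200358 to 63314576). An H3K27me3 peak of 41529 bp in control and 41361 bp in cKO spanned it, and an acetylated peak of 1270 bp in control and 1167 bp in cKO sat inside. Its window held 2069 bp under both marks in control and 2895 bp in cKO. ATAC peaks of all 4 lists overlapped the acetylated stretch at the internal start. The first annotated start, at 63200358, had no peak of any kind within 1 kb in the 8 lists.

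Dio3 lies at the end of the Dlk1-Dio3 domain (chromosome 12, 110279230 to 110281097). H3K27me3 covered 79.8% of its window in control and 84.9% in cKO. All 1546 acetylated bases in control and all 2132 in cKO lay under H3K27me3. The main double-marked place lay upstream of Dio3, over Dio3os and the miRNA gene Mir1247, and was open in all 4 ATAC lists. It ended 188 bp before the Dio3 start in control and 235 bp before it in cKO. Dlk1, a membrane protein that restrains differentiation, had H3K27me3 over 71.0% and 64.7% of its window and little H3K27ac (355 and 456 bp). Its 2 acetylated peaks in control, 2974 and 2598 bp upstream of the start, lay wholly under H3K27me3, whereas in cKO 18.6% of its acetylated bases did. In cKO an acetylated peak of 340 bp spanned a break between called H3K27me3 peaks, so this share rests in part on peak edges. Rtl1, a retrotransposon-derived gene, had its marks apart by 41436 bp in control and 42955 bp in cKO.

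Gnas encodes the stimulatory G protein alpha subunit and uses several starts with different imprints (chromosome 2, 174284320 to 174346744). In control an acetylated peak of 214 bp lay wholly inside H3K27me3, and in cKO an H3K27me3 peak of 271 bp lay wholly inside an acetylated peak of 942 bp. The other overlaps were at peak borders. An acetylated peak of 2645 bp in control and 2635 bp in cKO shared only its first 572 and 374 bp with H3K27me3. The first start, at 174284320, had H3K27me3 over all 2001 bp within 1 kb in both genotypes and no H3K27ac. The start at 174330006 was fully acetylated over the same span in both genotypes, with 489 and 309 bp of H3K27me3.

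**Figure D2:**
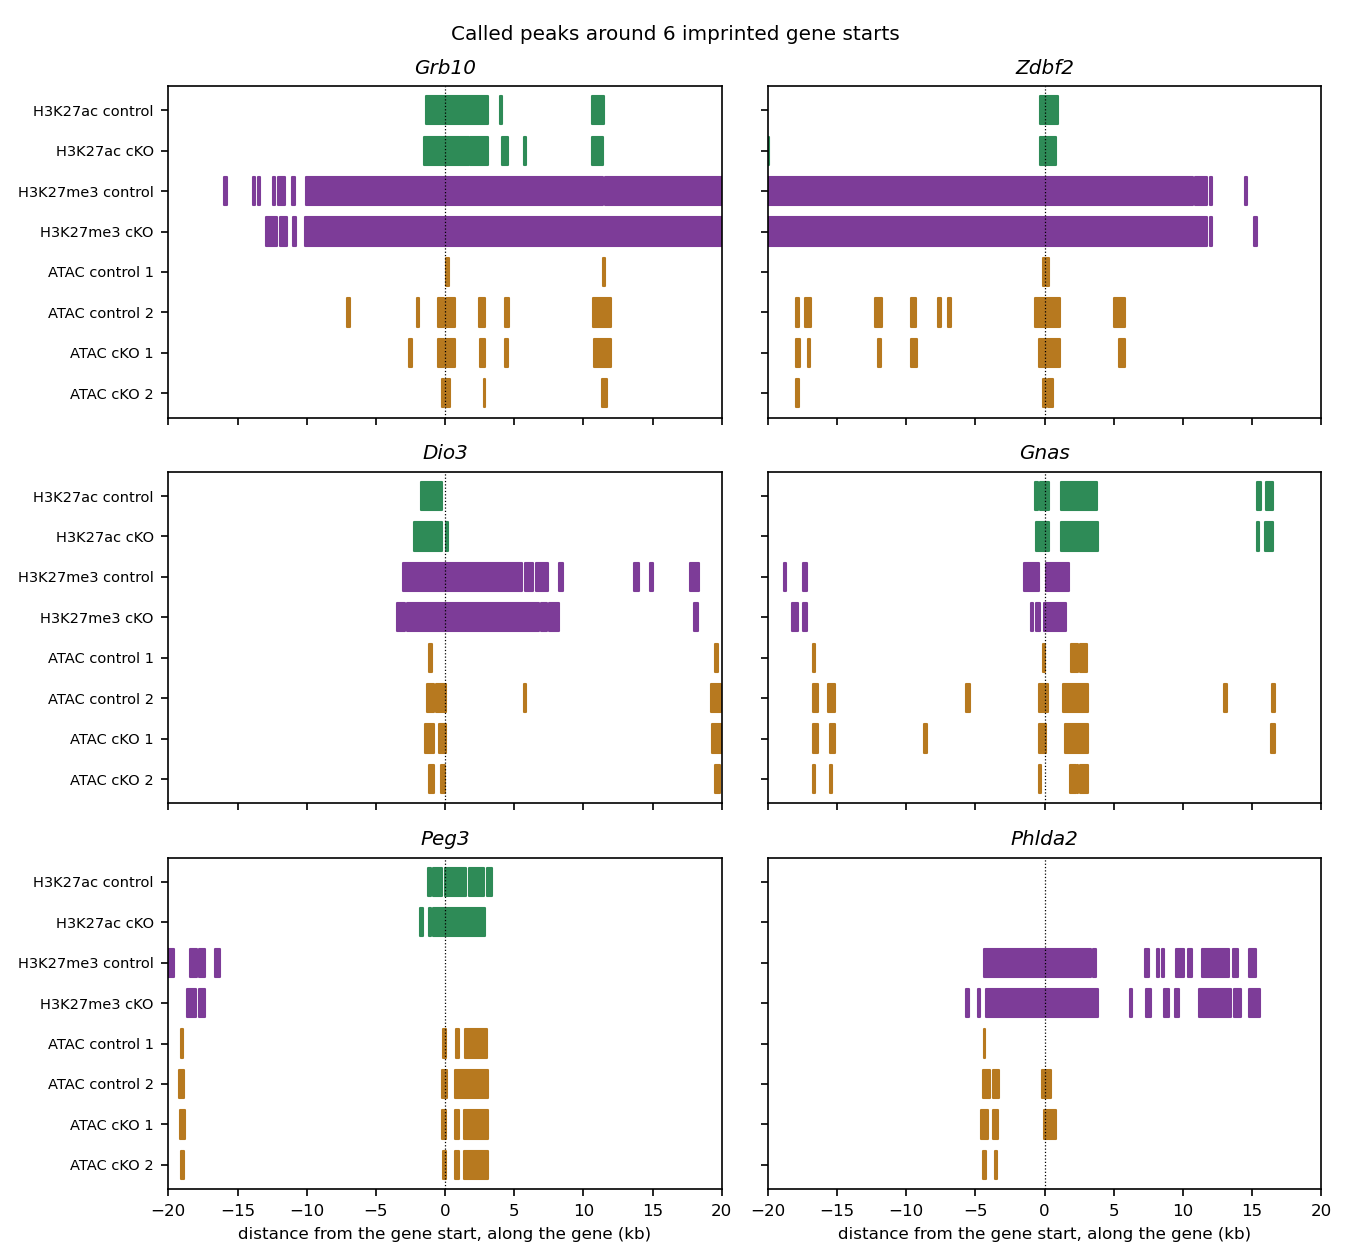
Peaks called in the 8 lists (rows; bars are called peaks) within 20 kb of a start of 6 imprinted genes, with distance in kb along the gene and the start at 0. Acetylated peaks sit inside long H3K27me3 peaks at Grb10, Zdbf2 and Dio3, overlap short H3K27me3 peaks at Gnas, and stand without it at the start of Peg3, while Phlda2 has H3K27me3 alone.

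Sfmbt2 encodes a Polycomb group protein and is expressed from the paternal allele, best known in placenta (chromosome 2, 10370440 to 10595253). Its 600 acetylated bases in control and 316 in cKO all lay inside H3K27me3 peaks of 11889 and 9250 bp near the second start. Kcnq1, a potassium channel gene in the imprinted part of distal chromosome 7, had H3K27me3 over 75599 bp in control and 77019 bp in cKO. Only 552 and 444 of its 7447 and 7451 acetylated bases were double-marked. The largest such place, 303 bp in control and 319 bp in cKO, lay just over 1 kb outside the annotated gene end and was open in all 4 ATAC lists. At Commd1 and Zrsr1 an acetylated peak of 2234 bp in control and 1796 bp in cKO met H3K27me3 over 80 and 281 bp. The place lay near the Zrsr1 start and the Commd1 start at 22972866. The other Commd1 start, at 22982284, had 1695 and 1581 bp of H3K27ac within 1 kb and no H3K27me3.

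Of the 17 members with a double-marked place in either genotype, 6 had 1 open in all 4 ATAC lists: Zdbf2, Ppp1r9a, Nap1l5, Kcnq1, Grb10 and Dio3. Of all genes 11% had such an open place, and of all double-marked genes 49%. Control had 26 separate places in member windows and cKO 25, with median lengths of 189 and 316 bp, beside 365 and 330 bp over all genes. In 13 of 26 and 15 of 25 the acetylated peak lay wholly inside the H3K27me3 peak. The same share over the places of all genes is not given here.

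**Figure D3:**
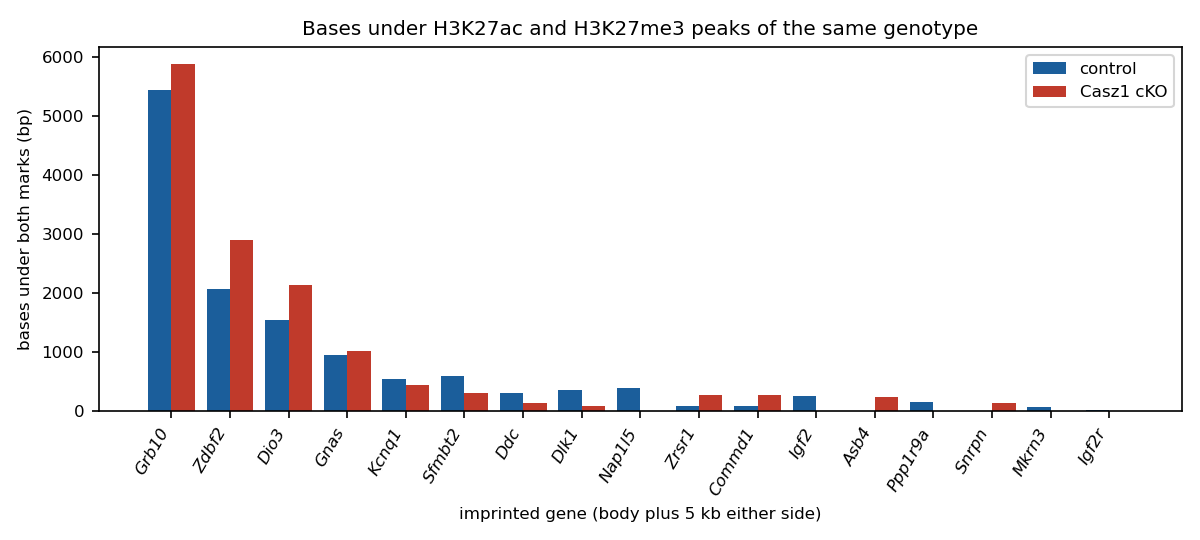
Bases under H3K27ac and H3K27me3 peaks of the same genotype in the window of each of the 17 imprinted genes with any, as bars for 1 control and 1 cKO library (y axis in bp, from 0). Grb10 is highest with 5452 and 5879 bp, and 7 genes have such bases in 1 genotype alone.

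The double mark was found in control alone at 5 members and in cKO alone at 2. Of 21627 genes, 4430 had it in control, 4339 in cKO and 3900 in both genotypes. Nap1l5, a nucleosome assembly protein gene inside Herc3, shared 392 bp between the marks in control and 0 in cKO (chromosome 6, 58905233 to 58907126). Both marks were lower there in cKO, H3K27ac at 806 and 480 bp and H3K27me3 at 729 and 262 bp, and the nearest peaks of the 2 marks in cKO were 2 bp apart. At Mkrn3, a makorin ring finger gene, and at the growth factor receptor gene Igf2r the overlaps in control were 77 and 15 bp. In cKO the nearest peaks of the 2 marks anywhere in each window were 31 and 53 bp apart. The Igf2r pair may lie elsewhere than the place shared in control. Both overlaps in control lay where peaks end, so these calls rest on peak edges. The Igf2r place lies 990 bp from the start of Airn, the noncoding RNA that silences the paternal Igf2r. Ppp1r9a, which encodes neurabin, had 159 bp in control, 20641 bp from its nearest start. In cKO alone there were 232 bp over the second start of Asb4 and 136 bp inside Snrpn. Control had no H3K27ac within 1 kb of that Asb4 start. Anywhere in the window, the nearest peaks of the 2 marks in control were 5177 bp apart at Asb4 and 653 bp at Snrpn. Igf2, the fetal growth factor gene, had 265 bp in control, the whole of its H3K27ac there, while its 1003 acetylated bases in cKO lay 3017 bp from H3K27me3.

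In the 13 genes with H3K27ac alone, it covered from 1.45% (Copg2) to 34.7% (Nnat) of their windows in control, with a median of 20.8%. Nnat, a small membrane protein of neurons, carried 4325 and 4247 acetylated bases in control and cKO (chromosome 2, 157560078 to 157562525). Peg3, a zinc finger gene, had 3869 and 4093 bp. Mest had 6423 and 5456 bp and Plagl1 10945 and 9103 bp. The others were Ndn, Peg12, Ube3a, Cd81, Tssc4, Blcap, Mcts2, Peg10 and Copg2. Mcts2 lies inside H13, and Peg10 and Sgce share their 1425 and 1334 acetylated bases.

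The 10 members with both marks apart in control were H13, Sgce, Asb4, Usp29, Snrpn, Magel2, Inpp5f, Rtl1, Trappc9 and Impact. The nearest peaks of the marks were between 653 bp (Snrpn) and 41436 bp (Rtl1) from each other. H3K27me3 covered from 0.313% (Impact) to 14.0% (Rtl1) of these windows, with a median of 1.24%, and H3K27ac a median of 4.81%.

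Genes with H3K27me3 alone included transcription factor, channel and transporter genes. Klf14 was covered over 92.7% of its window in control and 91.4% in cKO, and Ascl2, a placental bHLH factor gene, over 84.7% and 85.0% (chromosome 7, 142966822 to 142969264). The potassium channel gene Kcnk9 had 73.8% and 70.6%, and Phlda2, a restrainer of placental growth, 68.2% and 72.6%. Slc22a18, Calcr, Rasgrf1 and Slc38a4 lay lower, from 4.01% to 28.8% in control.

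Neighbours in a domain could thus stand in opposite states. On distal chromosome 7, Igf2 and Ascl2 had long H3K27me3, Cd81 and Tssc4 next to them had H3K27ac alone (5245 and 5194 bp at Cd81 in control and cKO), and Slc22a18 and Phlda2 had H3K27me3 alone. In the Snrpn-Ube3a domain Ube3a, Ndn and Peg12 had H3K27ac alone. Mkrn3, between Magel2 and Peg12, was acetylated at its start as well, over 1615 and 1529 bp within 1 kb. Its H3K27me3, over 35.5% and 34.0% of its window, began in control 538 bp upstream of the start, outside the gene. On chromosome 15 Trappc9 had 24207 and 25418 acetylated bases beside the H3K27me3 of Kcnk9.

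Sorted by the allele that textbook knowledge gives as the expressed one, 8 of 25 paternally expressed, 4 of 17 maternally expressed and 3 of 5 members with mixed or unsettled patterns were double-marked in control. In cKO the counts were 6, 3 and 3. The share of all genes was 20.5% and 20.1%. H3K27ac was in the window of 23 of the 25 paternally and 10 of the 17 maternally expressed members, and H3K27me3 in that of 17 and 13, in control and in cKO alike. Of all genes 71.7% had H3K27ac and 49% had H3K27me3 in control.

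Between genotypes few members moved. A gene was counted when the larger covered length was at least 500 bp and at least 1.5 times the smaller. H3K27ac was higher in cKO at 1 of 36 members, Igf2 (265 and 1003 bp), and lower at 3: Sfmbt2 (600 and 316 bp), Nap1l5 (806 and 480 bp) and Igf2r (2881 and 1864 bp). The same rule took 1.79% of all genes as higher and 4.35% as lower. At Igf2 the acetylated bases of the 2 libraries were at different places. Those in control lay 298 bp from a start, while in cKO none of its 4 starts had H3K27ac within 1 kb. H3K27me3 was higher at 1 of 29, Snrpn (2149 and 3257 bp), and lower at 2: H13 (1891 and 1070 bp) and Nap1l5. Of all genes 6.55% were higher and 9.52% lower. H13 is a signal peptide peptidase gene with the imprinted Mcts2 inside it.

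Counting any difference, H3K27ac was lower in cKO at 21 of 38 marked members (63.1% of all genes) and higher at 17 (36.8%). H3K27me3 was lower at 20 of 33 (54.7%) and higher at 13 (43.7%). The median change over marked members was -64.5 bp for H3K27ac and -160 bp for H3K27me3, beside -88 and -52 bp over all genes. With 1 library per genotype and mark these differences have no replicate check, and position in the retina cannot be told apart from genotype.

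**Figure D4:**
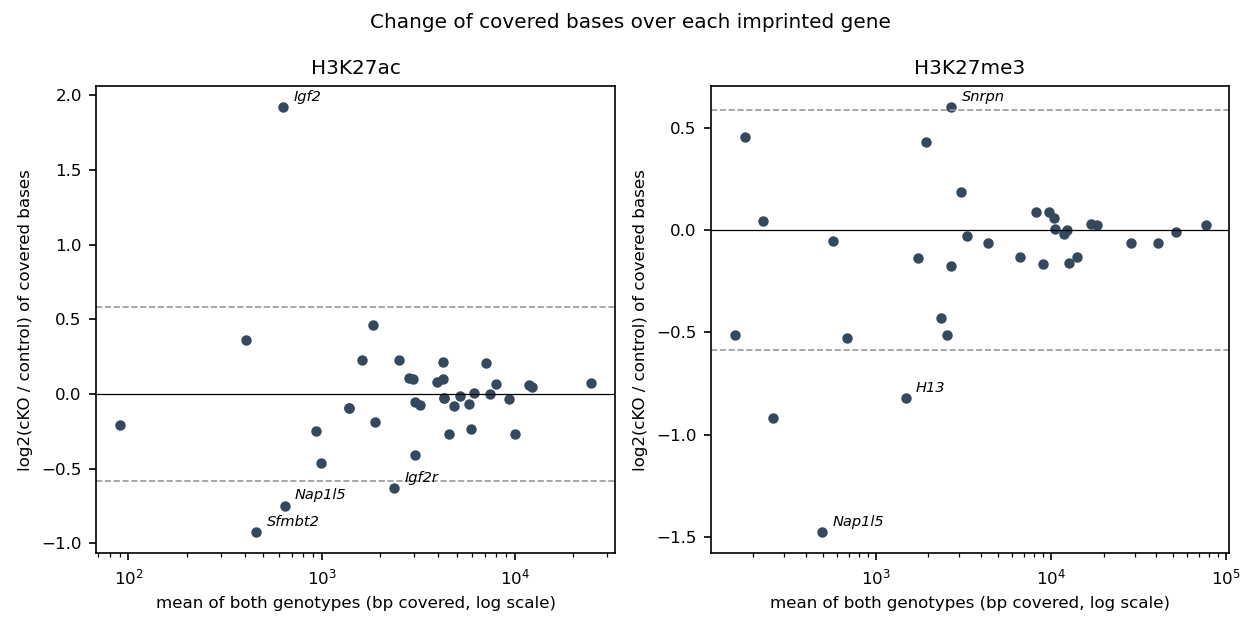
Log2 ratio of covered bases in cKO over control (y axis) against their mean (x axis, bp, log scale) for each imprinted gene marked in both libraries, for H3K27ac (left) and H3K27me3 (right), with dashed lines at 1.5-fold. Genes named passed the 1.5-fold rule with at least 500 bp, and Igf2 and Nap1l5 lie farthest from 0.

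Open chromatin was called in every member's window in the long lists, control replicate 2 and cKO replicate 1. It was called in 39 members in control replicate 1 and 43 in cKO replicate 2. The background was 81.3%, 80.3%, 70.2% and 75% of all genes for these lists in that order. Within 1 kb of starts a peak was called at 32 and 44 members for control replicates 1 and 2 (57.2% and 69% of all genes). For cKO replicates 1 and 2 it was 43 and 36 (68% and 61.9%). ATAC peaks covered a median of 1.03% and 7.28% of member windows in the first and second control replicate. The cKO medians were 5.53% and 1.61%. Each genotype thus held 1 high and 1 low list, and the groups overlapped.

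For 0 of 47 members did both cKO lists lie above both control lists, and for 0 did they lie below, beside 0.125% and 0.0832% of all genes. Divided by the bases each list covers, Snrpn, Ndn and Dio3 were higher in both cKO lists (4.84% of all genes) and Gnas and Ppp1r9a lower (2.88%). A comparison of 2 lists with 2 cannot give a two-sided exact permutation p below 0.333, so none is used. Between the long lists 39 members were lower in cKO (63.1% of all genes), and between the short lists 43 were higher in cKO (71.3%). The direction therefore turned between the pairs. Nnat had 1072 and 2535 bp of ATAC peak in the control lists, the highest shares of a window among the members there, against 2088 and 1554 bp in the cKO lists.

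Members with H3K27me3 alone were still open in the long lists. In control replicate 2 their ATAC coverage ran from 0.274% (Calcr) to 14.2% (Phlda2), while in control replicate 1 the median was 0%. Zim1, without either histone mark, had 275 and 1050 bp in the control lists against 1018 and 389 bp in the cKO lists.

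**Figure D5:**
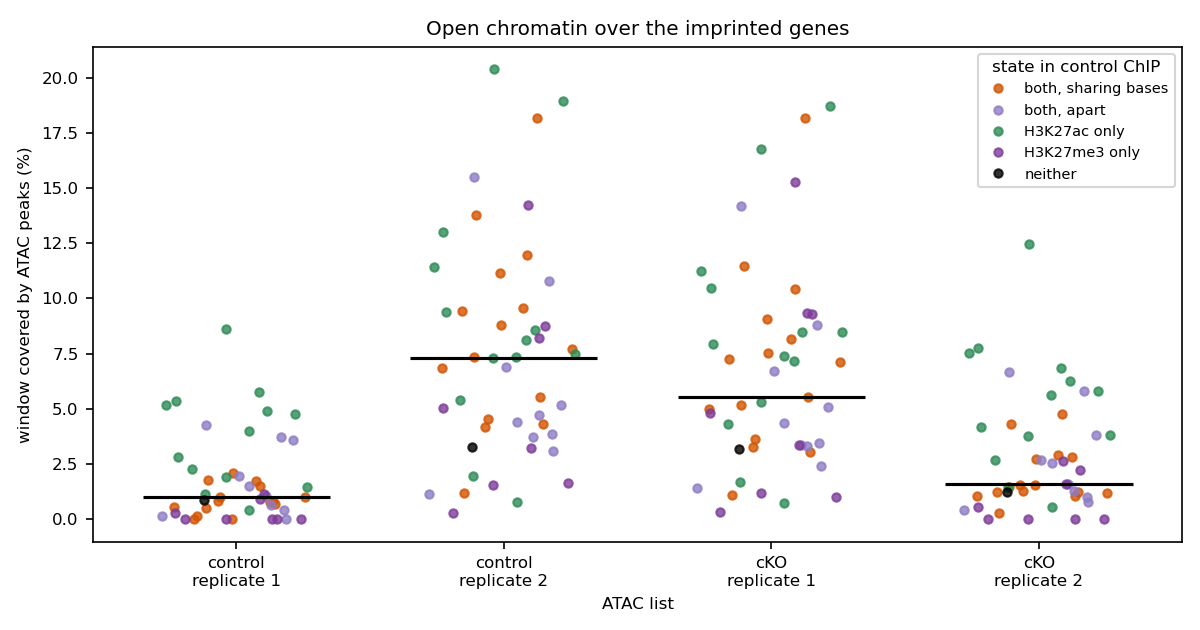
Percent of each imprinted gene's window covered by ATAC peaks (y axis) in the 4 ATAC lists (x axis), with 1 point per gene coloured by its histone state in control and a line at the median. The medians are 1.03% and 7.28% in control and 5.53% and 1.61% in cKO, so each genotype has 1 high and 1 low list.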

How the data were processed

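The 8 peak lists are used as the authors deposited them, and the 2 input samples were not analysed here. Each gives chromosome, start and end, and its score is 0 in every line per the deposited values. The submitters' processing notes name Bowtie2, MACS2 and deepTools, with the build mm10. Tool versions, peak threshold, narrow or broad mode, duplicates, Tn5 shift and input control were not given in the sources used here. A long H3K27me3 domain may therefore be whole or in pieces.

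Only peaks of chromosomes 1 to 19 and X entered. Covered bases were summed over gene windows in Python 3.11.15, and a double-marked place is at least 1 bp under both marks of the same genotype. The interval code was tested on simulated data. Starts came from the RefSeq promoter table, which had 39 of 47 members, and both annotated ends stood in for the other 8 genes. Exons and introns were not assigned, since the gene table gives gene ends only.

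Groups and replicate numbers come from the sample titles. No test was run: there is 1 library per genotype and mark and 2 ATAC lists per genotype. The members and lists were chosen with earlier results of these data known. Values are given for the 10 members with the most double-marked bases, those past the fold rule, those double-marked in 1 genotype and those unmarked, and others named were chosen after their values were seen. Alternatives covered windows, overlap, peak width, merging, list length, scaling and left-out replicates.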

Additional observations from a re-analysis of the deposited data

How the results depend on the processing

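Of 69 alternative values, 51 stayed within 1.5 times the reported count. These include ATAC counts of 0 beside 0, where a ratio has no meaning. They also include 10 double-marked members in place of 15 in control, at the edge of that limit. That count came with at least 200 bp shared (17.4% of all genes), and also within 1 kb of starts (14.5%). Members with both marks at the same place in both genotypes were 6 in place of 10 with at least 200 bp shared (15% of all genes). They were also 6 with peaks at least 300 bp wide (14.4%), which gave 7 in place of 12 in cKO (15.9%). The gene body alone gave 0 members higher in H3K27ac and 0 lower in H3K27me3. The window of 1 kb either side of starts gave 0 higher in H3K27ac, 0 higher in H3K27me3 and 1 lower in H3K27me3. A fold of 2 gave 0 lower in H3K27ac, 0 higher in H3K27me3 and 1 lower in H3K27me3, and merging peaks within 500 bp gave 2 higher in H3K27ac. The cause of these changes was not tested, and shares of all genes for the fold counts at these settings are not given here.

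For ATAC, dividing by the bases each list covers gave 3 members higher in cKO (4.84% of all genes) and 2 lower (2.88%). Leaving out 1 list gave from 0 to 43 members higher (43 without control replicate 2, 8 without cKO replicate 2) and from 0 to 39 lower (39 without control replicate 1). Shares of all genes for these settings are not given here. Between the short lists alone 43 members and 71.3% of all genes were higher in cKO. Between the long lists alone 39 members and 63.1% of all genes were lower. With the replicate number as a block 0 members were higher and 0 lower, the same as without it. The deviations of same-numbered lists from their group means had a correlation of -0.658, and crossed pairing, chosen after seeing the data, gave 6 members higher (15.6% of all genes) and 0 lower. Leaving out 1 ATAC list gave from 6 to 9 members with a double-marked place open in the lists kept, beside 6 in all 4 (9 without control replicate 1). Splitting the background by window length was also chosen after seeing the data. Depth is unknown, so no limit of detection is given.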

Other observations

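A second list held 34 other imprinted genes and noncoding RNAs, of which 32 were in the annotation. Both marks met at the same place in 12 of them in control, 14 in cKO and 11 in both, beside 20.5%, 20.1% and 18% of protein-coding genes. Meg3, the noncoding RNA of the Dlk1-Dio3 domain, had 2266 bp under both marks in control against 1657 bp in cKO. Begain had 2321 and 2363 bp, and Cdkn1c, which encodes the cell cycle inhibitor p57, 898 and 1083 bp. By the 1.5-fold rule H3K27ac was lower at Pon3 (575 and 317 bp) and Airn (4168 and 2372 bp) and higher at 0, beside 4.35% and 1.79% of all genes that passed the 500 bp minimum. H3K27me3 was higher at Pon2, Snhg14, H19 and Mirg and lower at 0, beside 6.55% and 9.52%. At H19 it covered 646 and 1125 bp. Airn overlaps Igf2r, and Snhg14 holds Snrpn, so these are in part the same peaks as above.

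Of 15 genes for proteins that set, keep or remove methylation at imprinted loci, 14 had H3K27ac within 1 kb of a start in both genotypes, beside 62.2% of all genes in control and 62.1% in cKO. Dppa3, a germ line gene, was the exception, with H3K27me3 over 1855 bp in control and 940 bp in cKO. Both marks met in both genotypes at 3, Setdb1, Tet1 and Tet3, beside 18% of all genes. Dnmt1, the maintenance methyltransferase, had 3185 and 3937 acetylated bases, and Zfp57 had 1324 and 1101. H3K27ac passed the 1.5-fold rule at 0 of the 15, and H3K27me3 at Tet3 (1978 and 3190 bp) and Dppa3.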
